A study of Drosophila melanogaster with 9 samples.

Results

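The JNK kinase cascade of dorsal closure was followed through 9 genes: the ligand gene egr, the kinase genes msn, slpr, Tak1, hep, Mkk4 and bsk, and the adaptor and scaffold genes Tab2 and Cka. Members were the probe sets to which the platform annotation gave 1 gene symbol, current or older, from this list. There were 13 such probe sets for 8 of the 9 genes, out of 18769 probe sets for 11982 named genes. No probe set was named Tak1, so Tak1 was not analysed here. RNA of whole dechorionated Drosophila melanogaster embryos at stages 10 to 13, a span that includes germ band retraction, was measured on 9 arrays in 3 groups of 3. The group labelled Cbt>69B carried a UAS-Cbt transgene under the epidermal driver 69B-Gal4. The mutant group was homozygous for cbtEP(2)2237E1, a P-element allele of cabut (cbt), and was picked by an embryo sorter as the non-GFP class of a line kept over Cy0, twi-eGFP. The control group was white 1118 (w1118 below), also put through the sorter. About 1000 embryos went into each Cbt>69B and each mutant sample. No driver-only embryos were analysed here, and no label states that replicates were independent collections of embryos, so each p below rests on the variation among these arrays, part or all of which may be technical.

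In dorsal closure sheets of epidermis from both flanks meet over the amnioserosa, and JNK signalling in the leading edge cells is needed for it. The cascade passes phosphate from kinase to kinase. Misshapen, a kinase of the Ste20 family, acts upstream of MAP3 kinases such as Slipper and Tak1, these phosphorylate the MAP2 kinases Hemipterous and Mkk4, and these in turn activate Basket, the JNK of the fly. Eiger, the TNF ligand of the fly, triggers the same cascade in other settings, above all in cell death. Basket phosphorylates the AP-1 partner Jra, and AP-1 turns on genes such as puc, a phosphatase that shuts the kinase off again. Cabut is a zinc finger transcription factor that embryos also need for dorsal closure. Arrays read transcript levels, not the phosphorylation that carries the signal. In whole embryos fewer cells of a type and less RNA per cell cannot be told apart.

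The arrays did not fall cleanly into their groups. Log2 cbt levels were 3.17, 3.16 and 3.74 on the arrays labelled Cbt>69B, 4.25, 4.70 and 3.85 on the mutant arrays, and 6.22, 6.05 and 7.90 on the w1118 arrays. The cbt transcript thus stood lowest in the group labelled as overexpressing it, with a log2 difference of -3.37 (SE 0.48) from w1118 that passed limma's test (adjusted p = 0.0436). That group differed from the mutant by -0.91 (SE 0.48, adjusted p = 0.337), and the mutant from w1118 by -2.46 (SE 0.48, adjusted p = 0.19). Neither of these passed. The cbt levels come from 1 probe set, and whether it also reads the transgene was not tested. Directions in the Cbt>69B group are therefore those of the arrays labelled Cbt>69B. Over all probe sets w1118 replicate 2 correlated at 0.968 to 0.981 with the arrays labelled Cbt>69B and at 0.890 and 0.894 with w1118 replicates 1 and 3. The difference between 3' and 5' actin control probe sets, a measure of RNA integrity and labelling, was 4.82 to 5.57 on the arrays labelled Cbt>69B, 3.16 to 3.49 on the mutant arrays, 3.18 and 3.36 on w1118 replicates 1 and 3, and 4.75 on w1118 replicate 2. The same difference for eIF-4a was 2.53 to 2.84 on the arrays labelled Cbt>69B, 2.86 to 2.92 on the mutant arrays, and 3.24, 2.64 and 3.67 on w1118 replicates 1, 2 and 3. For GAPDH it was 1.15 to 1.79, 1.74 to 2.14, and 2.09, 1.74 and 2.23 in the same order. The controls thus did not move in 1 direction. In each of them w1118 replicate 2 lay nearer the arrays labelled Cbt>69B than w1118 replicates 1 and 3 did. The part of these control differences in the results was not tested. Epidermal markers (shg, crb, grh and ovo) were all above background on every array, with mean levels of 3.67 to 4.24 on the arrays labelled Cbt>69B, 4.39 to 5.31 on the mutant arrays, and 6.30, 4.73 and 6.27 on w1118 replicates 1, 2 and 3. The 7 amnioserosa markers averaged 4.71 to 4.86, 4.53 to 5.36 and 5.01 to 5.42 in the same order of groups, but single markers went opposite ways: for Cbt>69B minus w1118 Ance was at 1.38 (adjusted p = 0.0536) and Doc2 at 0.68, against -1.42 for peb, -1.37 for Doc1 and -1.43 for ush. Of the germ cell genes, vas lay below background on every array and osk read 0.67 to 1.66. Of 5 listed muscle markers 2 were measured, Mlp60A and sls. They averaged 3.98 to 4.20 on the arrays labelled Cbt>69B, 4.55 to 5.42 on the mutant arrays, and 6.94, 4.10 and 6.27 on w1118 replicates 1, 2 and 3. For mutant minus w1118 they went opposite ways, at 0.21 for Mlp60A and -1.83 for sls, and Mlp60A read highest on mutant replicate 1 (9.45). The list means of neuronal, hemocyte and early segmentation markers were also highest on w1118 replicates 1 and 3, through genes such as elav, srp and hb, whereas nSyb, Hml and crq read highest on w1118 replicate 2, brp and eve on arrays labelled Cbt>69B and Pxn on mutant replicate 1. None of the 26 measured markers passed limma's test in any comparison (16, 8 and 5 at an unadjusted p under 0.05 for Cbt>69B minus w1118, mutant minus w1118 and Cbt>69B minus mutant, beside 31.9%, 9% and 18.9% of all probe sets). The part of cell makeup in the results below was not tested.

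Of the 13 member probe sets, 9 lay above background on all 9 arrays, background being the highest Tag control probe set of the array, which has no fly target (0.58 to 1.20). These 9 covered all 8 genes. A second bsk probe set, 1626404_a_at, was above background on 8 of 9 arrays. The other 3, namely 1629442_at of egr, 1623804_a_at of hep and 1634580_at of bsk, exceeded it on 5, 3 and 0 arrays, and their group means lay between 0.29 and 0.92. No fold is given for them. All values are log2 levels, and levels of different probe sets are not set against each other.

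The ligand gene egr was lower on every array labelled Cbt>69B than on any w1118 array. Its probe set 1639671_at read 1.84, 3.12 and 2.81 on the arrays labelled Cbt>69B, 3.22, 3.66 and 2.85 on the mutant arrays, and 4.86, 3.23 and 4.78 on the w1118 arrays. The mutant arrays overlapped with both other groups. The difference was -1.70 (95% interval -2.87 to -0.54) for Cbt>69B minus w1118 and -1.05 (-2.21 to 0.12) for mutant minus w1118. Neither passed limma's test over all probe sets (adjusted p = 0.0983 and 0.598).

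The gene msn, which encodes the kinase Misshapen at the top of the cascade, gave the smallest p of all members for Cbt>69B minus w1118. Its level was 3.82, 3.59 and 3.80 on the arrays labelled Cbt>69B, 4.63, 4.67 and 4.14 on the mutant arrays, and 5.37, 4.63 and 5.83 on the w1118 arrays. The 3 groups lay in steps: every array labelled Cbt>69B was below every mutant array, and the mutant arrays overlapped w1118 only through w1118 replicate 2. The differences were -1.54 (SE 0.29, adjusted p = 0.0828) for Cbt>69B minus w1118, -0.80 (SE 0.29, adjusted p = 0.496) for mutant minus w1118 and -0.74 (SE 0.29, adjusted p = 0.242) for Cbt>69B minus mutant in limma's test. The last of these passed when only the arrays labelled Cbt>69B and the mutant arrays were fitted (SE 0.17, adjusted p = 0.0371) and without w1118 replicate 2 (adjusted p = 0.035). With the gene length trend removed (per array, a loess curve on gene span of each probe set's deviation from its mean) the 3 values were -0.50, -0.056 and -0.44, so the msn value depended on that setting in each comparison.

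The MAP3 kinase gene slpr and the adaptor gene Tab2, whose product binds Tak1, both had their lowest group mean on the arrays labelled Cbt>69B and differed in the step between mutant and w1118. For slpr the levels were 3.62, 3.05 and 3.43 on the arrays labelled Cbt>69B, 3.31, 4.82 and 4.05 on the mutant arrays, and 5.76, 4.06 and 5.87 on the w1118 arrays. The spread among mutant arrays, 0.76 (SD, n = 3), was larger than among those labelled Cbt>69B, 0.29 (SD, n = 3). The slpr difference was -1.87 (SE 0.54, adjusted p = 0.0974) for Cbt>69B minus w1118 and -1.17 (SE 0.54, adjusted p = 0.589) for mutant minus w1118. Tab2 read 1.73, 1.26 and 1.61 on the arrays labelled Cbt>69B, 2.43, 3.21 and 2.62 on the mutant arrays, and 3.18, 2.14 and 3.23 on the w1118 arrays. Tab2 thus stood at similar levels in mutant and w1118, with a difference of -0.092 (95% interval -0.86 to 0.67), which turned to 0.15 with cyclic loess scaling and to 0.40 with the gene length trend removed. On the arrays labelled Cbt>69B it lay below every other array, by -1.32 (SE 0.33, adjusted p = 0.0944) against w1118 and -1.22 (SE 0.33, adjusted p = 0.145) against the mutant. Background on the arrays labelled Cbt>69B was 1.20, 1.20 and 0.83. Tab2 was above it on each but close to it on replicate 2, so the size of these differences is uncertain. The second difference passed with only the arrays labelled Cbt>69B and the mutant arrays fitted (SE 0.23, adjusted p = 0.0221). With the gene length trend removed the first was -0.46 (adjusted p = 0.188) and the second -0.86 (adjusted p = 0.0934).

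The MAP2 kinase genes hep and Mkk4 were the members whose mutant arrays all lay below all w1118 arrays, w1118 replicate 2 included. The brighter hep probe set, 1634949_at, read 4.49, 3.99 and 3.84 on the arrays labelled Cbt>69B, 3.65, 3.77 and 3.52 on the mutant arrays, and 4.70, 4.05 and 4.61 on the w1118 arrays. Another, 1626465_a_at, read 3.73, 3.26 and 3.62, then 2.80, 3.29 and 3.10, then 4.10, 3.29 and 3.71 in the same order, where mutant replicate 2 and w1118 replicate 2 differed by less than the second decimal. Mkk4 stood at 4.96, 5.17 and 5.28 on the arrays labelled Cbt>69B, 4.70, 5.14 and 5.27 on the mutant arrays, and 6.35, 5.43 and 6.25 on the w1118 arrays. So hep was lowest in the mutant, while the Mkk4 levels of the mutant and of the arrays labelled Cbt>69B overlapped, both below w1118.

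For mutant minus w1118, hep differed by -0.81 (95% interval -1.33 to -0.29) on 1634949_at and -0.64 (-1.18 to -0.092) on 1626465_a_at, and Mkk4 by -0.98 (-1.59 to -0.36). None of these passed over all probe sets in limma's test (adjusted p = 0.369, 0.496 and 0.358). With the gene length trend removed the hep values were -0.34 and -0.16, and that of Mkk4 was -0.82. On the arrays labelled Cbt>69B hep was at -0.35 (-0.87 to 0.17) from w1118 on 1634949_at, a value that turned to 0.087 with cyclic loess and to 0.49 with the length trend removed. Mkk4 was at -0.88 (-1.49 to -0.26) from w1118 there, and at -0.30 with the length trend removed. Between the arrays labelled Cbt>69B and the mutant, hep was the member with a positive difference on both of its detected probe sets, 0.46 (SE 0.22) and 0.47 (SE 0.24), neither of which passed limma's test (adjusted p = 0.304 and 0.312). Mkk4 gave 0.10 (SE 0.27), which became -0.023 with array medians set equal. With the length trend removed these values were 0.83, 0.84 and 0.52, also not called (adjusted p = 0.101, 0.0956 and 0.172).

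The gene bsk, which encodes the JNK itself, had the widest spread among w1118 arrays. Its probe set 1625533_at read 3.79, 4.65 and 4.21 on the arrays labelled Cbt>69B, 4.72, 6.67 and 5.59 on the mutant arrays, and 7.84, 4.41 and 7.57 on w1118 replicates 1, 2 and 3. On 1626404_a_at the levels were 0.86, 1.29 and 0.95 on the arrays labelled Cbt>69B, 2.27, 4.30 and 2.99 on the mutant arrays, and 5.66, 1.51 and 5.23 on the w1118 arrays. These probe sets followed each other over the 9 arrays (r = 0.991, a description over arrays that share their labelling). In both, w1118 replicate 2 lay below all mutant arrays, and mutant replicate 2 was the highest mutant array. On 1626404_a_at, 2 of the 3 arrays labelled Cbt>69B were above background, and the group mean, 1.04, did not exceed the mean background of the 3. Differences between that group and the others on this probe set are against a level at the floor, so their size is not given.

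The bsk difference was -2.39 (SE 0.90, adjusted p = 0.127) for Cbt>69B minus w1118 on 1625533_at, and 1626404_a_at did not pass either (adjusted p = 0.108). Between the arrays labelled Cbt>69B and the mutant all arrays were apart on both probe sets, with a difference of -1.44 (SE 0.90, adjusted p = 0.399) on 1625533_at and an adjusted p of 0.301 on 1626404_a_at in limma's test. With only these groups fitted in limma, 1626404_a_at passed (adjusted p = 0.0338), with its level at the floor on the arrays labelled Cbt>69B, and missed the threshold for 1625533_at (SE 0.49, adjusted p = 0.101). For mutant minus w1118 the values were -0.95 (95% interval -3.03 to 1.14) and -0.95 (-3.34 to 1.45). These intervals are too wide to give a direction.

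Cka encodes the scaffold Connector of kinase to AP-1, which binds Basket and its partners. Its probe set 1637815_s_at carries the suffix that Affymetrix gives to probe sets that may match more than 1 gene. It read 4.61, 4.44 and 4.32 on the arrays labelled Cbt>69B, 4.71, 5.12 and 4.84 on the mutant arrays, and 6.41, 4.84 and 6.37 on w1118 replicates 1, 2 and 3. The w1118 arrays other than replicate 2 stood more than 1 log2 unit above all others. The differences were -1.42 (SE 0.39, adjusted p = 0.0969) for Cbt>69B minus w1118, -0.98 (SE 0.39, adjusted p = 0.522) for mutant minus w1118 and -0.43 (SE 0.39, adjusted p = 0.542) for Cbt>69B minus mutant in limma's test. With the gene length trend removed they were -0.59, -0.53 and -0.058.

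**Figure D1:**
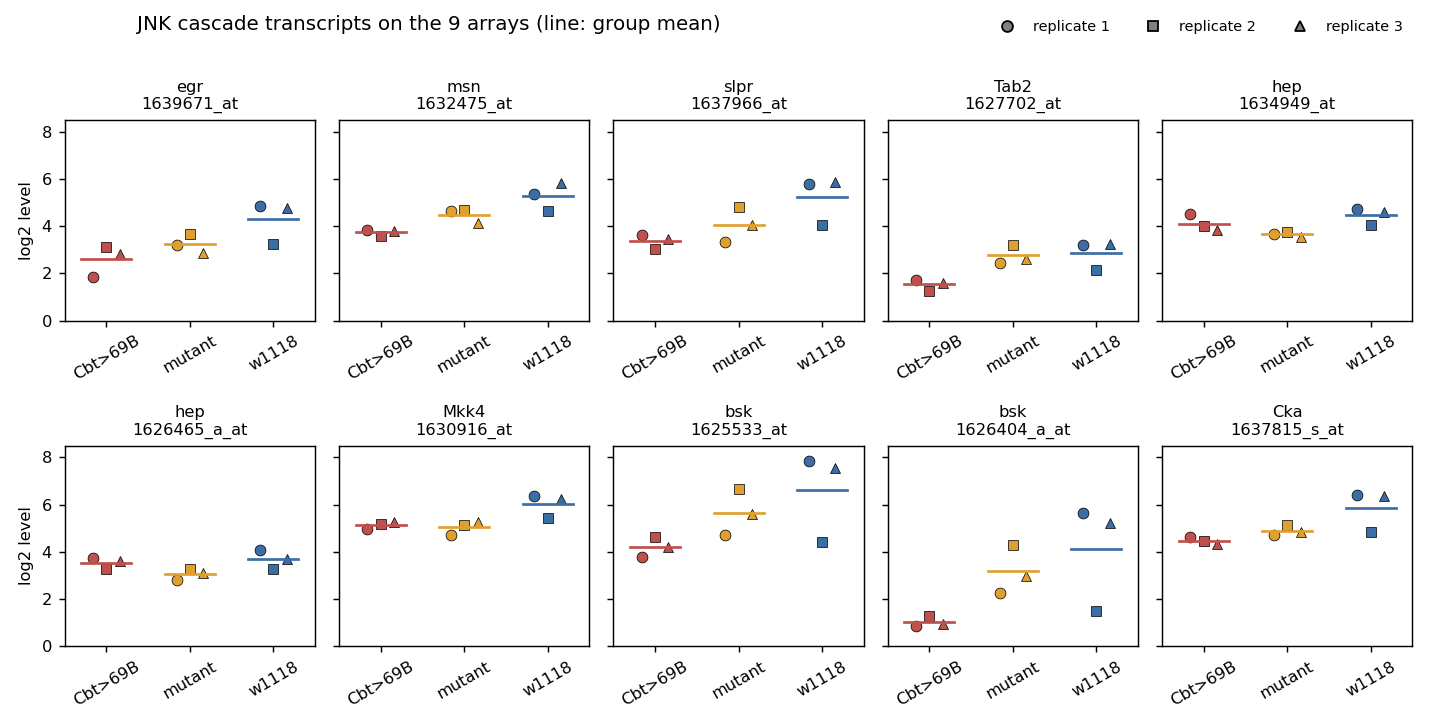
Log2 level (vertical axis) of the 10 member probe sets with a mean above 2, on each array labelled Cbt>69B, mutant or w1118. Symbols mark the replicate number and lines the group means, and w1118 replicate 2 (square) lies below w1118 replicates 1 and 3 in all 10.

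Across the 3 groups, 0 of 13 member probe sets passed limma's moderated F test, against 73 of 18769 probe sets (0.389%). At an unadjusted p under 0.05 it counted 8 of 13 members, beside 24.7% of all probe sets. The smallest adjusted p of a member was 0.119, for msn. Over all probe sets the count was 37 when mutant replicate 3 was dropped, 6978 when w1118 replicate 2 was, and 34, 33 and 27 when Cbt>69B replicate 1, 2 or 3 was.

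For mutant minus w1118 no member passed limma's test over all probe sets, where 25 of 18769 (0.133%) did. At an unadjusted p under 0.05 there were 5 member probe sets, of msn, hep (2), Mkk4 and Cka, beside 9% of all probe sets. All 8 genes had a value below 0 on their brightest probe set, with a median of -0.96 and a range of -1.17 for slpr to -0.092 for Tab2. The median of the 6925 probe sets with a mean level above 2 over the 9 arrays was 0.11, with 43.8% below 0, and that of all 18769 was 0.0097. Of the 10 member probe sets with a mean above 2, 3 had all mutant arrays below all w1118 arrays (hep on both probe sets and Mkk4) and 0 the reverse, beside 4.58% and 7.49% of the 6925. Median differences also varied with gene length. Among probe sets with a mean above 2, genes with a span of 4 to 16 kb in the RefSeq table had a median difference of -0.30 and those over 16 kb of -0.75, against 0.30 for 1 to 4 kb. By span, egr (5.85 kb), slpr (6.96 kb), Tab2 (12.0 kb), hep (11.2 kb), Mkk4 (4.63 kb) and Cka (10.1 kb) belong to the first of these, msn (31.7 kb) to the second and bsk, with the shortest span of the members, to the third. The count of 25 became 15 when mutant replicate 3 was dropped, 12 when w1118 replicate 3 was, and 14, 13 and 12 when Cbt>69B replicate 1, 2 or 3 was. The members' count was 0 in each of these. Without w1118 replicate 2 the count was 3987, with 10 members.

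For Cbt>69B minus w1118 again 0 of 13 member probe sets passed limma's test, beside 70 of 18769 (0.373%), of which 45 were higher and 25 lower (51 and 16 with cyclic loess). An unadjusted p under 0.05 was reached by 8 member probe sets, those of egr, msn, slpr, Tab2, Mkk4, bsk (2) and Cka, beside 31.9% of all. The median of the 8 genes was -1.48, from -2.39 for bsk to -0.35 for hep, against -0.34 over the 6925 probe sets with a mean above 2, of which 59.7% were below 0. All arrays labelled Cbt>69B lay below all w1118 arrays for 7 of the 10 member probe sets, against 24.3% of the 6925, and above them for 0 of 10, against 16.9%. The 3 that overlapped were both hep probe sets and 1625533_at of bsk. Among the 7, Tab2 and 1626404_a_at of bsk averaged 1.53 and 1.04 on the arrays labelled Cbt>69B, the latter at the floor. They passed the cut at a mean of 2 only through the other groups, so the cut itself bears on this count. Median differences by gene span were -0.82 for 4 to 16 kb, -1.07 over 16 kb and -0.020 for 1 to 4 kb, the bin of bsk. With the length trend removed egr was at -1.03, slpr at -1.13 and bsk at -2.07 on 1625533_at in this comparison, and none passed (adjusted p = 0.0683, 0.0599 and 0.0663 in limma's test). The count of 70 was 30 when mutant replicate 3 was dropped, 45 and 27 when w1118 replicate 1 or 3 was dropped, and 22, 23 and 11 when Cbt>69B replicate 1, 2 or 3 was, with 0 members called in each of these. Without w1118 replicate 2 it was 7625, with 9 members.

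Setting the arrays labelled Cbt>69B against the mutant takes the w1118 arrays out of the difference, though not out of the spread. Here 0 of 13 members passed limma's test, beside 48 of 18769 probe sets (0.256%). At an unadjusted p under 0.05 there were 2, msn and Tab2, beside 18.9% of all probe sets. All arrays labelled Cbt>69B were lower for 5 of the 10 member probe sets with a mean above 2 (msn, Tab2, both of bsk, and Cka), against 35.5% of the 6925, and higher for 1, 1634949_at of hep, against 21%. Here too Tab2 and 1626404_a_at of bsk passed the cut at a mean of 2 only through groups other than Cbt>69B. The median of the 8 genes was -0.67, from -1.44 for bsk to 0.46 for hep, against -0.28 over the 6925 probe sets. When only these groups were fitted, msn, Tab2 and 1626404_a_at of bsk fell in the arrays labelled Cbt>69B, 3 of 13 beside 7.54% of all probe sets, the last of them to a level at background, and 0 of 13 rose beside 6.28%. The same 3 passed without w1118 replicate 2. Over all probe sets the count of 48 became 24 and 25 when mutant replicate 2 or 3 was dropped, 2999 and 90 when w1118 replicate 2 or 3 was, and 28 and 26 when Cbt>69B replicate 1 or 3 was.

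**Figure D2:**
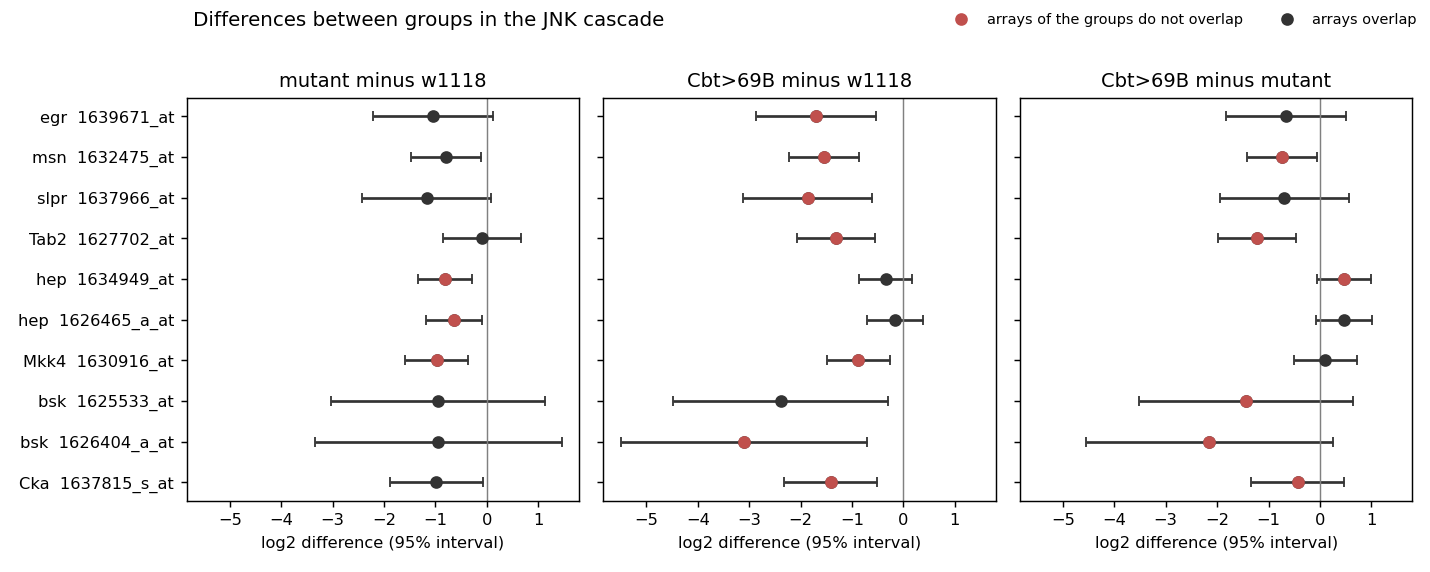
Log2 difference (horizontal axis) with its 95% interval from limma for the 10 member probe sets in each comparison, with red points where the arrays of the groups do not overlap. The bsk intervals are the widest, from -4.47 to -0.31 on 1625533_at for Cbt>69B minus w1118, the points of 1626404_a_at for Cbt>69B are against a level at background, and hep is the gene with positive values on both probe sets for Cbt>69B minus mutant.

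Much of the comparison with w1118 turned on w1118 replicate 2. This array was below both other w1118 arrays for all 8 member genes, as it was for 53.5% of the 6925 probe sets with a mean above 2. Its level minus the mean of w1118 replicates 1 and 3 had a median of -1.30 over the 8 genes and of -0.33 over the 6925. The gap was widest for bsk, at 4.41 on replicate 2 and a mean of 7.70 on replicates 1 and 3, and narrowest for hep, at 4.05 and 4.66. Among the mutant arrays, replicate 2 was the highest for 7 of the 8 genes, the exception being Mkk4, beside 43.8% of the 6925. Its first principal component score over all probe sets was 27.9, against -1.57 and 6.38 for mutant replicates 1 and 3, on an axis where w1118 replicates 1 and 3 scored 95.7 and 100.6.

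Without w1118 replicate 2, 10 of 13 member probe sets fell in the mutant, beside 12.1% of all probe sets, and 0 rose, beside 9.11%. They were all but Tab2, the dim egr probe set and the dim bsk probe set, and included the hep probe set near background. Values were -2.05 for bsk on 1625533_at, -1.75 for slpr, -1.58 for egr, -1.50 for Cka, -1.27 for Mkk4, -1.12 for msn and -1.01 for hep, with adjusted p from 0.000909 for Cka to 0.0248 for bsk. In the same setting 9 fell in the arrays labelled Cbt>69B, beside 21% of all probe sets, and 0 rose, beside 19.6%. The 9 included the hep probe set near background, 1623804_a_at, which was above background on 0 arrays labelled Cbt>69B. They also included 1626404_a_at of bsk, whose mean on the arrays labelled Cbt>69B was at the floor. There bsk was at -3.49 on 1625533_at, slpr at -2.45, Cka at -1.93 and Tab2 at -1.67, while both bright hep probe sets, at -0.55 and -0.37, did not pass (adjusted p = 0.0579 and 0.19). The controls left in this setting are w1118 replicates 1 and 3 alone, so genotype and what sets these apart from the other 7 arrays cannot be told apart. Their poly-A spike-in controls averaged 1.91 and 2.42, against 3.09 to 4.03 on the other arrays.

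Against w1118 replicate 2 alone, 0 of 13 member probe sets passed limma's test in either comparison, and 1 in each had an unadjusted p under 0.05, 1626404_a_at of bsk for the mutant and msn for the arrays labelled Cbt>69B. Over all probe sets 0.202% passed in either comparison, and 15.5% for the mutant and 8.38% for the arrays labelled Cbt>69B had an unadjusted p under 0.05. The mutant then differed by 1.25 (SE 0.69) for bsk on 1625533_at and 0.62 (SE 0.33) for Tab2, and by -0.41 (SE 0.27) for hep and -0.40 (SE 0.26) for Mkk4, while egr, slpr and Cka lay within 0.05 of 0. On the arrays labelled Cbt>69B msn was at -0.89 (SE 0.24, adjusted p = 0.366), slpr at -0.70 (SE 0.53), egr at -0.64 (SE 0.51) and Tab2 at -0.61 (SE 0.33), and 7 of the 8 genes were below 0, the exception being hep at 0.055, beside 56.9% of the 6925 probe sets. In the mutant 4 of 8 were below 0, beside 42.0%. The median of the 8 genes in this setting was 0.0049 for the mutant and -0.50 for the arrays labelled Cbt>69B, against 0.14 and -0.090 over the 6925 probe sets. With 1 control array its spread is assumed to be that of the other groups.

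**Figure D3:**
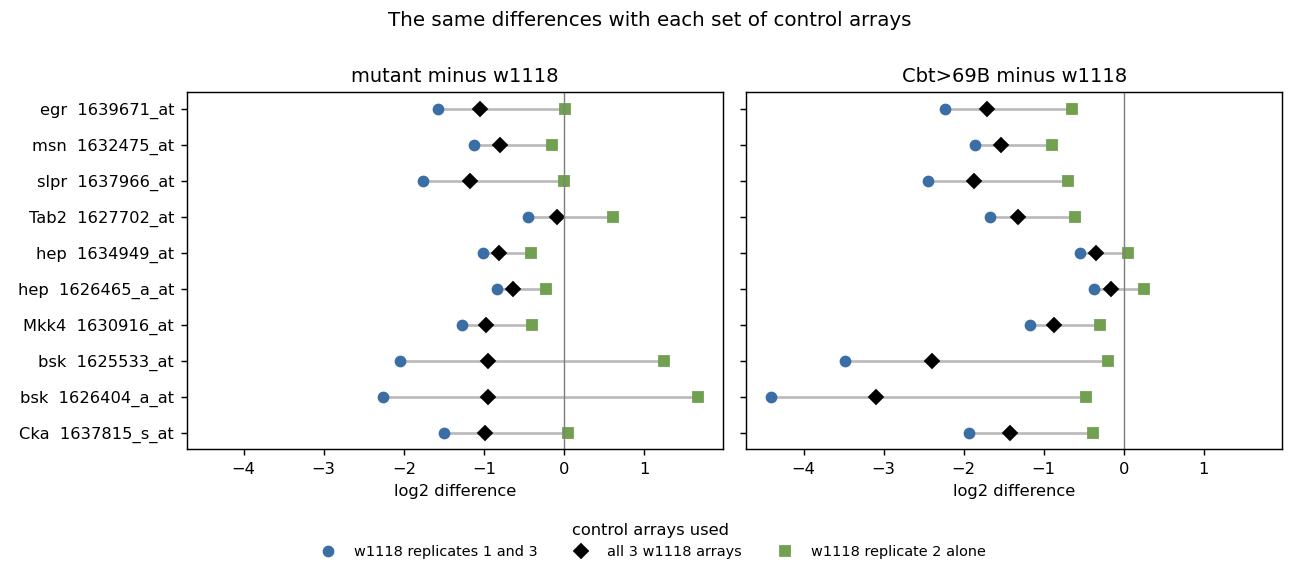
Log2 difference (horizontal axis) of the 10 member probe sets against w1118 replicates 1 and 3, against all 3 w1118 arrays and against w1118 replicate 2 alone. For mutant minus w1118 bsk on 1625533_at is at -2.05 against replicates 1 and 3 and at 1.25 against replicate 2. Both hep probe sets, Mkk4, msn and slpr stay below 0 in all 3, slpr only just against replicate 2 (-0.0051).

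The genes that surround the cascade were read from 5 lists, each by its brightest probe set. Probe sets were found for 8 of 18 listed JNK inputs, 8 of 11 genes of other MAP kinase modules and 5 of 8 STRIPAK partners. For the IMD branch it was 7 of 8, and for AP-1 genes, JNK brakes and targets 9 of 10. The medians below are those of the measured genes, not of the whole lists. None of the 37 measured genes passed limma's test in any of the 3 comparisons. At an unadjusted p under 0.05 there were 18 for Cbt>69B minus w1118, 7 for mutant minus w1118 and 8 for Cbt>69B minus mutant, beside 31.9%, 9% and 18.9% of all probe sets. For Cbt>69B minus w1118 the median difference was -1.06 over 9 AP-1 genes, JNK brakes and targets, -0.73 over 8 genes of other MAP kinase modules, -0.58 over 7 genes of the IMD branch, which shares Tak1 and Tab2, -0.55 over 5 STRIPAK partners of Cka and -0.41 over 8 JNK inputs, against -1.48 for the cascade. For mutant minus w1118 the medians in the same order were -0.70, -0.32, -0.14, 0.22 and -0.25, against -0.96. For Cbt>69B minus mutant they were -0.18, -0.25, -0.75, -0.45 and 0.058, against -0.67, so the IMD branch lay below the cascade there. The 4 epidermal markers had medians close to the cascade's. They were -1.49 for Cbt>69B minus w1118, -0.91 for mutant minus w1118 and -0.63 for Cbt>69B minus mutant. All 9 AP-1 genes, brakes and targets were below 0 in both comparisons with w1118. Among them raw, which restrains JNK signalling, was at -1.06 (SE 0.28, adjusted p = 0.0963), and aop, an ETS repressor, at -3.37 (SE 0.98, adjusted p = 0.0974) in the arrays labelled Cbt>69B. The AP-1 gene Jra was at -0.19 and -0.045, and kay, the fly Fos, at -0.72 and -0.54, for Cbt>69B and mutant minus w1118. The phosphatase gene puc, the feedback target of JNK, was at -2.15 (SE 0.67, adjusted p = 0.101) and -1.33 (SE 0.67, adjusted p = 0.619) in limma's test. Its mean on the arrays labelled Cbt>69B, 1.53, was near their background (0.83 to 1.20), so the size of the first value is uncertain.

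Upstream of the kinases, the TNF receptor gene grnd was at 0.085 for Cbt>69B minus w1118 and 0.079 for mutant minus w1118, while the other receptor gene wgn was at -1.37 (adjusted p = 0.132) and -0.36. Traf4, an adaptor that links receptors to Misshapen, was at -1.63 (SE 0.54, adjusted p = 0.106) in the arrays labelled Cbt>69B, and ben, a ubiquitin-conjugating enzyme gene, at -0.33 (SE 0.11, adjusted p = 0.445) in the mutant. In other MAP kinase modules wnd, a MAP3 kinase gene of neurons, was at -1.96 (SE 0.49, adjusted p = 0.0939) and Dsor1, the MAP2 kinase gene of the ERK pathway, at 1.53 (SE 0.42, adjusted p = 0.0963) for Cbt>69B minus w1118. In the IMD branch Fadd was at -0.89 and Diap2 at 0.92 in the same comparison. The Fadd mean on the arrays labelled Cbt>69B, 1.21, was near their background (0.83 to 1.20), so its size is uncertain. Among Cka's partners Slmap was at -0.98 (SE 0.18, adjusted p = 0.147) for mutant minus w1118 and Fgop2 at -1.26 (SE 0.28, adjusted p = 0.111) for Cbt>69B minus mutant.

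**Figure D4:**
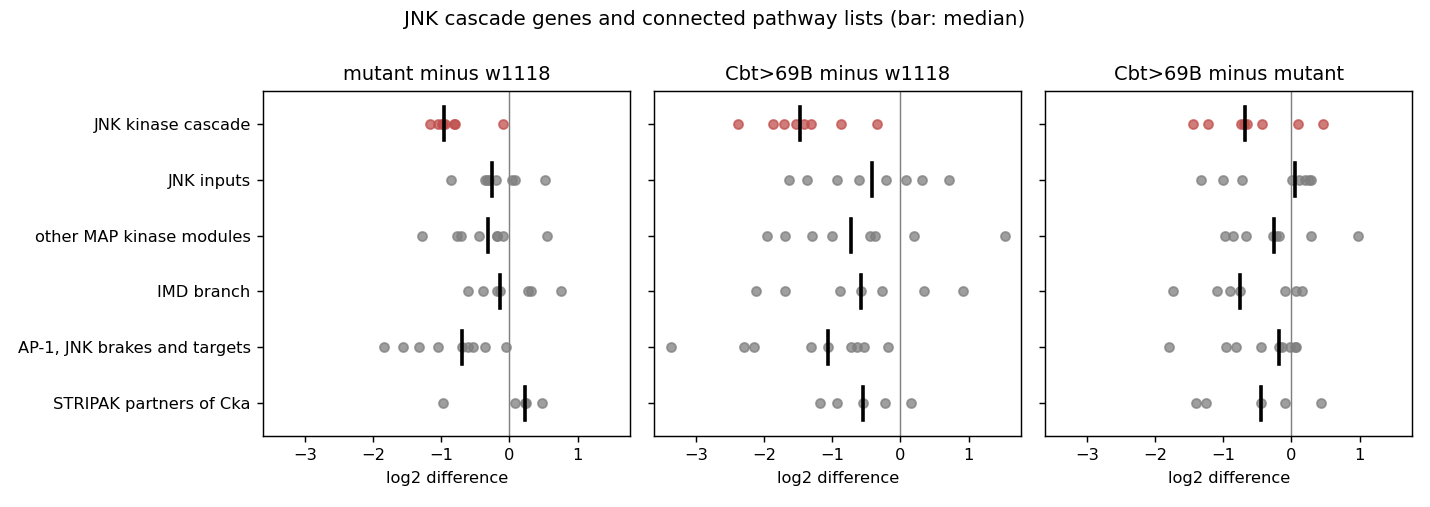
Log2 difference (horizontal axis) of the brightest probe set of each measured gene in the cascade and in 5 connected lists, with black bars at the medians. The cascade's median is -0.96 for mutant minus w1118, -1.48 for Cbt>69B minus w1118 and -0.67 for Cbt>69B minus mutant.

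Over the 9 arrays the members followed a common course, hep the least closely, though its values of r overlapped with those among the others. Pearson's r between hep and the other 7 genes was 0.213 with Tab2 to 0.709 with Mkk4, whereas among the other 7 it ran from 0.551 for Tab2 with Mkk4 to 0.957 for slpr with Cka. These are descriptions over 9 arrays that share groups and the split of w1118. The genes most like bsk among 8076 named probe sets above the median level were BuGZ (r = 0.994), qkr58E-1 (0.994) and CG18178 (0.993), and 15.3% of the 8076 had r above 0.9 with bsk. Those most like msn were the translation factor gene eIF4B (r = 0.988), pum, a translational repressor gene (0.987), and CG30020 (0.976), with 3.54% above 0.9. The nearest to hep were cwo, a transcriptional repressor gene of the circadian clock (r = 0.967), CG5815 (0.957) and mld (0.938), with 0.186% above 0.9. A larger share of probe sets thus followed bsk than followed hep.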

How the data were processed

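Transcripts were measured on 9 Affymetrix Drosophila Genome 2.0 arrays, 1 biotin-labelled RNA sample each. The authors deposited log2 levels, a single value for each probe set of an array. Per the submitters' processing notes the tools were RMA, affy and limma, with no version. The annotation of the probes, the build and any filter are not stated in these sources. No coordinates are printed, and no member sequences were used here. Of 18952 probe sets, 183 Affymetrix controls were left out. The platform annotation gave 1 symbol for 13647, of which 13544 were updated by gene ID from RefSeq (assembly Release 6 plus ISO1 MT). Gene spans come from the same table.

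Group means of all 9 arrays and 18769 probe sets were modelled with limma 3.58.1 in R 4.3.3, with Benjamini-Hochberg adjustment over all of them, a threshold of 0.05 and 95% intervals from the same fit. The fit was tested on simulated data. The number of arrays limits the precision.

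The members, lists and alternatives were chosen with earlier results of these data known. Named genes are all members, cbt, the 2 genes per pathway list with the smallest p in any comparison, and the 3 probe sets most like bsk, hep and msn. Added after their values were seen were Jra, kay, puc, grnd, wgn and, from the marker lists, shg, crb, grh, ovo, Ance, Doc2, peb, Doc1, ush, Mlp60A, sls, elav, nSyb, brp, srp, Hml, crq, Pxn, hb, eve, vas and osk. Alternatives were equal medians, cyclic loess, a background filter (at least 3 arrays), fits of 2 groups, a replicate block, array weights, w1118 replicate 2 as the only control, removal of the gene length trend (loess span 0.5, probe sets with a span and a mean above 2) and leaving out each array.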

Additional observations from a re-analysis of the deposited data

How the results depend on the processing

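Member values kept their direction and side of the threshold under most alternatives, and no member was called with equal medians, cyclic loess, the background filter, the replicate block or the gene length trend removed. Numbers of called probe sets (mutant minus w1118, Cbt>69B minus w1118, Cbt>69B minus mutant) were 3, 18 and 2595 with only the 2 groups fitted, 15, 1020 and 89 of 6075 with the length trend removed, and 5329, 8846 and 3802 with array weights, which gave w1118 replicate 2 a weight of 0.119. The F test called 8658 with weights. Members called with weights were 10, 10 and 2 of 13, beside 28.4%, 47.1% and 20.3% of all probe sets. With only these groups fitted 3 of 13 members were called for Cbt>69B minus mutant, beside 13.8% of all probe sets. Against w1118 replicate 2 alone 38 were called in each comparison with w1118.

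Same-numbered arrays deviated together at r from -0.374 to 0.260, and arrays of different numbers at -0.259 to 0.403. With 3 arrays a group these values cannot show whether same-numbered samples shared a batch or collection. The main fit did not pair them. With the replicate block 11, 17 and 30 probe sets were called in the 3 comparisons and 23 in the F test, and no member.

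Leaving out 1 array gave 12 to 3987, 11 to 7625 and 24 to 2999 called probe sets in the 3 comparisons, 27 to 6978 in the F test, and 0 to 10, 0 to 9 and 0 to 3 members. The upper ends are without w1118 replicate 2, the setting in which members were called.

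Signs turned for values that were not called. Mkk4 in Cbt>69B minus mutant was -0.023 with equal medians and -0.068 to 0.22 with 1 array left out. Tab2 in mutant minus w1118 was 0.15 with cyclic loess, 0.40 without the length trend, 0.62 against w1118 replicate 2 and -0.45 to 0.099 with 1 array left out. The hep value in Cbt>69B minus w1118 was 0.087, 0.49 and 0.055 in the first 3 of these settings. Against w1118 replicate 2 egr was at 0.015, bsk at 1.25 and Cka at 0.046 in mutant minus w1118. The cause was not tested.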
